A study of Mus musculus with 12 samples.

Results

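OT-I cells are CD8 T cells of a transgenic mouse line that carry 1 T cell receptor, specific for a peptide of ovalbumin on a class I molecule. Splenocytes of this line were primed in culture for 4 days with the N4 peptide, a strong agonist, or with Y3, an altered form of it known as a weaker ligand. The comparison described here sets Y3 plus corticosteroid against N4 plus corticosteroid, 3 arrays against 3. These were chosen by their sample titles out of 12 arrays, the other 6 being the same peptides without corticosteroid. Corticosteroid was thus present in both groups compared, and its name and dose are not given in the sources used here. Arrays of the same replicate number were paired, and all 39463 genes with a symbol were tested. The labels call the arrays biological replicates without naming separate mice or cultures, so a p-value here reflects only how far these arrays differ from one another, which may be partly technical. The cells carry 1 receptor specificity, are labelled splenocytes with no purity stated, and were measured at 1 time point. No freshly isolated OT-I cells were analysed here.

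The strength of receptor binding sets how hard a CD8 T cell is driven by a peptide. Strong priming is known to raise the metabolic programme of the dividing cell (glycolysis, amino acid uptake, protein and sterol synthesis) together with cytokines, lytic granule proteins and costimulatory receptors. Weakly primed cells are known to keep more of the transcription factors of naive and memory cells. Corticosteroids act through the glucocorticoid receptor, a transcription factor that induces its own set of target genes and restrains inflammatory ones. Interferons act through cell surface receptors and transcription factors that switch on antiviral genes, guanylate-binding proteins and class I presentation.

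Values are log2 of the deposited array signal, and a difference is Y3 minus N4 with corticosteroid. After ± stands its standard error in the fit of 3 pairs, where the spread of each gene was drawn towards that of all genes. It is therefore not the plain standard error of the 3 pair differences, and can be smaller than that. The 6 arrays had gene medians of 5.05 to 5.13, and between 14275 and 17516 genes per array lay above the brightest background control of that array, at 5.41 to 6.40. For N4 replicates 1 and 3 and Y3 replicate 2 this line (5.41, 5.84 and 5.81) lay below the median negative control (5.72, 5.86 and 6.09). Signal above background is thus a weak sign of expression there, and the least fold differences given below depend on this line. Any 2 of the 6 arrays correlated at 0.98 to 0.997 over genes. On the first principal component (52.9% of the variance) N4 replicate 1 stood apart at -76.7, against -15.6 to 49.6 for the other arrays. On the second (24% of the variance) N4 replicate 3 stood apart at -59.3, against -2.8 to 23.4. Of the 7 CD8 T cell markers measured all lay above background, while most markers of several other spleen cell types were below background on all 6 arrays. This held for 9 of 10 B cell markers, among them Ms4a1 and Cd79a, and for 9 of 11 dendritic cell markers, among them Itgax and Flt3. It held also for 8 of 10 macrophage, 7 of 8 neutrophil and 7 of 7 erythroid markers, but for only 2 of 6 NK cell and 1 of 5 CD4 and regulatory T cell markers.

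The 20 genes with the largest differences, 10 each way, among genes past the threshold in a fit of all 12 arrays and with groups that did not overlap give the outline of the comparison. Higher in Y3 were genes of the interferon-inducible PYHIN and apolipoprotein L families (Pydc3, Pydc4, Pyhin1, Ifi203, Apol7e, Apol7b), the memory cell surface protein Ly6c2, the chemoattractant receptor Gpr15, the ubiquitin ligase Rnf213 and the cyclic nucleotide phosphodiesterase Pde2a. Lower in Y3 were the cytokines Il24 and Lif, the transcription factors Zbtb32 and Batf3, the phosphatase Dusp4, the chemokine receptor Ccr4, the hypoxia-inducible genes Bnip3 and Ero1l, the myosin Myo10 and Maats1. The largest difference was 4.60 ± 0.51 for Pydc3 (n = 3 pairs). Il24 lay below background on all 3 Y3 arrays, so its mean was lower in Y3 by at least 6.08-fold, though N4 replicate 3 was itself near background. In each of the 20 the 3 arrays of one peptide lay above all 3 of the other, as the rule for naming them required. For near-identical gene copies such as Pydc3 and Pydc4, Apol7b and Apol7e, Ly6c1 and Ly6c2, and the guanylate-binding proteins, values are uncertain, since how far the probes tell the copies apart was not tested.

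None of the 39463 genes (0%) passed an adjusted p of 0.05 in the paired fit of the 6 arrays, where the smallest was 0.0825, while 5917 genes had an unadjusted p below 0.05. That fit has 2 residual degrees of freedom. In a fit of all 12 arrays with the replicate number as a block, the same difference passed for 2576 genes (6.53%), of which 1358 were higher in Y3 (3.44%) and 1218 lower (3.09%). All 2576 had an unadjusted paired p below 0.05, which is no separate support, since both fits hold the same 6 arrays and the same difference. In what follows a gene is called if it passed in the fit of 12 arrays, and none of the calls was made by the 6 arrays alone. Arrays of 1 peptide and number deviated together without and with corticosteroid (correlations of 0.524 to 0.815), which the fit of 12 arrays takes as separate evidence; with peptide and number as a random block it called 2370 genes, 2270 of them shared. With all 12 arrays and no replicate block 101 genes were called, 31 higher and 70 lower in Y3. With the block the count was 469, 79 and 2962 without replicate numbers 1, 2 and 3. Without single arrays with corticosteroid it was 1296, 1130 and 1317 for N4 replicates 1, 2 and 3, and 1470 and 847 for Y3 replicates 1 and 2. All 3 Y3 arrays lay above all 3 N4 arrays for 3120 genes (7.91%) and below them for 3389 (8.59%). The median difference of all genes was -0.0068, and 389 genes differed by at least 1 and 338 by at most -1. A difference above 0 was found in 48.0% of genes. The list counts below are to be read beside these shares. Those without replicate numbers 1, 2 and 3 stand beside 469, 79 and 2962 called of 39463 genes.

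**Figure D1:**
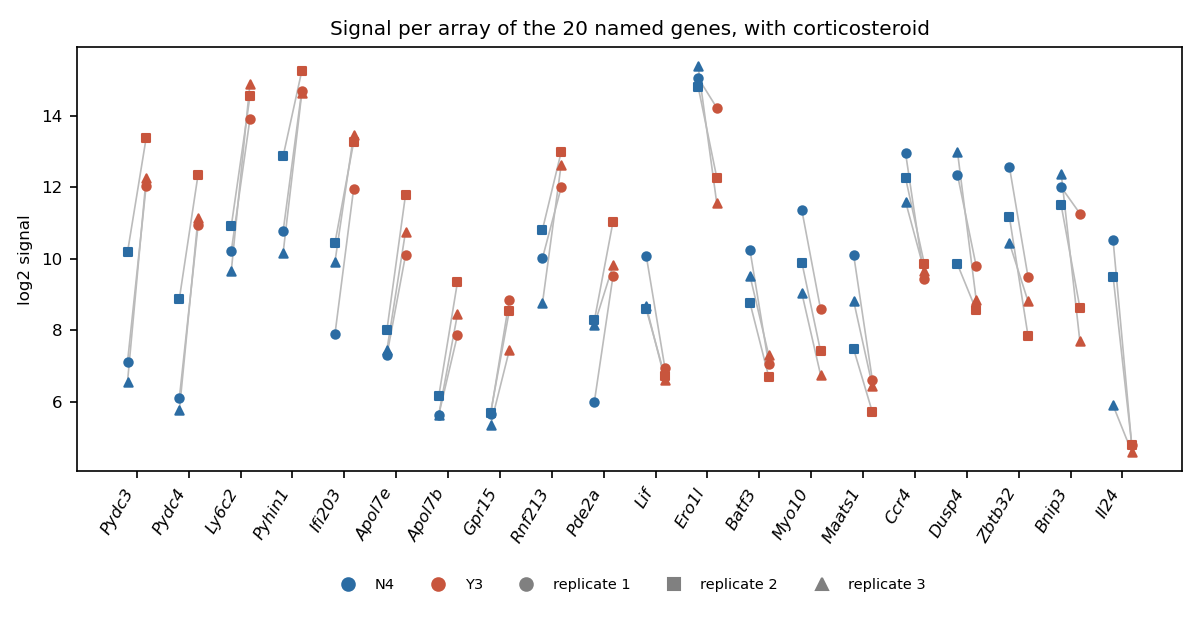
Log2 signal on each of the 6 corticosteroid arrays for the 20 named genes, with N4 arrays in blue, Y3 arrays in red, a marker shape for each replicate number and a line joining each pair. All 3 Y3 points lie above the N4 points for the first 10 genes and below them for the last 10; Il24 in N4 spans 5.91 to 10.51.

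The largest of these differences was that of Pydc3, a small pyrin-domain gene of the PYHIN cluster. Its signal was 7.12, 10.18 and 6.56 in N4 and 12.04, 13.38 and 12.25 in Y3, a difference of 4.60 ± 0.51 (24.3-fold; adjusted p = 0.00218 in the fit of 12 arrays and 0.0965 in that of 6). The N4 arrays were more spread than the Y3 arrays, with N4 replicate 2 the brightest of its group, and the groups did not overlap. Pydc4, its neighbour in the family, read 6.12, 8.89 and 5.78 in N4 and 10.93, 12.35 and 11.14 in Y3, a difference of 4.55 ± 0.39. The same N4 array was again the brightest of the 3. Pyhin1 was at 10.77, 12.86 and 10.17 in N4 and 14.70, 15.25 and 14.63 in Y3, a difference of 3.59 ± 0.43. Ifi203 was at 7.90, 10.45 and 9.92 in N4 and 11.96, 13.26 and 13.47 in Y3, a difference of 3.47 ± 0.26. In Ifi203 it was N4 replicate 1 that lay below the other N4 arrays.

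Of the 19 measured members of the PYHIN, Schlafen and ApoL families, 11 were called higher in Y3 and 0 lower, beside 3.44% and 3.09% of all genes. The median difference was 1.57. It was 1.60, 1.16 and 1.40 in pairs 1, 2 and 3. The called Schlafen genes, which restrain T cell proliferation or restrict viruses, were Slfn1 (2.59 ± 0.18), Slfn8 (1.78 ± 0.33), Slfn2 (1.57 ± 0.11) and Slfn5 (1.09 ± 0.15). Slfn5 lay below background on all 3 N4 arrays, so that it was at least 1.66-fold higher in Y3, taking each N4 array at its brightest background control. Mndal, another PYHIN member, differed by 2.30 ± 0.24. Apol7e read 7.31, 8.0 and 7.45 in N4 and 10.10, 11.79 and 10.76 in Y3, a difference of 3.30 ± 0.21, with the 3 N4 arrays within 1 unit of each other. Apol7b read 5.64, 6.16 and 5.65 in N4 and 7.86, 9.34 and 8.45 in Y3, a difference of 2.73 ± 0.21. Aim2 (-0.035 ± 0.20), the DNA sensor of this family, and Apol9a (-0.076 ± 0.14) and Apol9b (-0.17 ± 0.10), both at background, were not called. The count of called members was 6, 5 and 11 without replicate numbers 1, 2 and 3, and 9 to 11 without single arrays.

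Of 30 interferon-stimulated genes, all 30 had a difference above 0, 17 were called higher and none was called lower. Over all genes 48.0% were above 0, 3.44% were called higher and 3.09% lower. The median was 1.02, and per pair it was 0.97, 0.67 and 1.57. Transcription factors were among them. Irf7, the factor that amplifies type I interferon, read 7.55, 9.27 and 7.92 in N4 and 9.72, 10.40 and 10.55 in Y3, a difference of 1.98 ± 0.31. Every Y3 array lay above its N4 partner. Irf9, a factor of the type I interferon response, differed by 0.90 ± 0.15, whereas Stat2 (1.02 ± 0.24) was not called. The nucleic acid sensor Zbp1 had the largest difference of the list, with 8.76, 10.35 and 9.39 in N4 and 10.64, 12.61 and 11.91 in Y3 and 2.22 ± 0.15. Further called members were Rtp4 (1.76 ± 0.30), Parp14 (1.60 ± 0.26), Trim30a (1.5 ± 0.24), Xaf1 (1.37 ± 0.30), the RNA sensor Ddx58 (1.29 ± 0.20), Oas1a (1.38 ± 0.19), Cmpk2 (1.36 ± 0.32) and Ifi27l2a (1.01 ± 0.22). Ifit3 (0.94 ± 0.13), Isg15 (0.68 ± 0.082) and Rsad2 (1.18 ± 0.31) were called too, with signals near background in N4. Ifi44 and Oas2 were called while below background on all 6 arrays, so no level is given for them. Ifit1 (1.29 ± 0.32), Usp18 (1.26 ± 0.36) and Mx2 (0.63 ± 0.13) were not called. Without replicate numbers 1, 2 and 3 the calls numbered 3, 4 and 14, and 11 to 20 without single arrays.

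The interferon-inducible GTPases, which attack the membranes around intracellular pathogens, showed the same direction in all 15 measured members and in 15 of 15 members within every pair. 10 were called higher, with a list median of 1.30 and pair medians of 1.20, 1.15 and 1.57. Gbp9 read 10.49, 12.93 and 11.98 in N4 and 12.56, 14.62 and 14.16 in Y3, a difference of 1.98 ± 0.13. Tgtp2 read 11.11, 13.88 and 12.86 in N4 and 13.48, 15.39 and 15.16 in Y3, a difference of 2.06 ± 0.20. The groups overlapped for 13 of the 15 genes. Iigp1 (2.13 ± 0.33), Gvin1 (1.79 ± 0.33), Gbp10 (1.76 ± 0.19), Gbp2 (1.61 ± 0.29), Gbp4 (1.30 ± 0.12) and Irgm1 (1.27 ± 0.16) were also called, and Irgm2 (1.12 ± 0.14) and Igtp (0.78 ± 0.27) were not. The calls numbered 1, 6 and 11 without replicate numbers 1, 2 and 3, and 6 to 11 without single arrays.

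Class I presentation genes showed smaller differences, with a median of 0.46 and 4 of 12 called higher. These were Nlrc5, the transactivator of class I genes (1.10 ± 0.14), the loading factor Tapbp (0.97 ± 0.17), the trimming peptidase Erap1 (0.88 ± 0.13) and the proteasome activator subunit Psme2 (0.51 ± 0.10). B2m, the light chain, read 18.86, 19.12 and 19.21 in N4 and 19.12, 19.22 and 19.31 in Y3 and differed by 0.15 ± 0.086. Of 17 genes of interferon receptors and upstream signalling, 5 were called higher. The factor Irf1 differed by 1.5 ± 0.16, the receptor chains Ifnar1 and Ifngr1 by 0.96 ± 0.16 and 0.98 ± 0.25, the kinase Jak1 by 0.88 ± 0.15 and the RNA sensor Tlr7 by 1.32 ± 0.29. Ifng itself, the interferon of T cells, pointed the other way with a wide spread. It read 12.93, 5.47 and 6.78 in N4 and 6.38, 4.30 and 6.63 in Y3, a difference of -2.62 ± 1.35 that was not called (adjusted p = 0.283 in the fit of 12 arrays). The class I calls numbered 1, 0 and 4 without replicate numbers 1, 2 and 3, and 1 to 4 without single arrays. The upstream calls numbered 1, 0 and 5 without replicate numbers 1, 2 and 3, and 2 to 5 without single arrays.

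Promoter sequences of these families are shown because most members differed in 1 direction and many carry the element that interferon-activated factors bind. The sequences are RefSeq's, on build GRCm38.p6, from 250 bases before to 50 bases after the start site, and 5′ to 3′ on the gene's strand. The element was searched as GAAA, any 2 bases, GAAA, on both strands, with overlapping matches allowed. It was present in 13 of 20 promoters of the PYHIN, Schlafen and ApoL list (65%), in 12 of 25 of the interferon-stimulated list (48%), and in 9 of 11 of the GTPase list (81.8%). Over all 32851 promoters the share was 3.44%. These are counts of promoters, and some genes have 2. Promoters were at hand for 15 of the 20, 20 of the 30 and 10 of the 18 genes listed. Pydc3, Pydc4 and Zbp1 were among those without one. A match is a string of letters in this window, not a measured binding site, and members that were not called, such as Apol9a and Apol9b, hold it too. Matches are in capitals. In Isg15 3 overlapping matches form 1 run, and in Apol7e 2 matches on the opposite strand do.
Ifi203, chr1:173942443-173942742, minus strand: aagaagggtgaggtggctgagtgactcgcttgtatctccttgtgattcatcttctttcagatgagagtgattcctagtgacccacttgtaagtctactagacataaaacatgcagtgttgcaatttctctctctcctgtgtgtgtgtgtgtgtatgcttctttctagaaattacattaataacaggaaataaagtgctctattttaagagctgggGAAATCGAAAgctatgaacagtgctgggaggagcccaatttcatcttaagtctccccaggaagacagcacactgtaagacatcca
Apol7e, chr15:77698639-77698938, plus strand: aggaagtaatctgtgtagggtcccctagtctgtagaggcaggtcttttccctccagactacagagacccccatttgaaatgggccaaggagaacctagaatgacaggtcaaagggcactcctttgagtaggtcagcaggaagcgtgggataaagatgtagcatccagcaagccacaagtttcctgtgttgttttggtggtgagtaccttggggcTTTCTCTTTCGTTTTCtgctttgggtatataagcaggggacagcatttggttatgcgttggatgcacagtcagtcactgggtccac
Isg15, chr4:156200769-156201068, minus strand: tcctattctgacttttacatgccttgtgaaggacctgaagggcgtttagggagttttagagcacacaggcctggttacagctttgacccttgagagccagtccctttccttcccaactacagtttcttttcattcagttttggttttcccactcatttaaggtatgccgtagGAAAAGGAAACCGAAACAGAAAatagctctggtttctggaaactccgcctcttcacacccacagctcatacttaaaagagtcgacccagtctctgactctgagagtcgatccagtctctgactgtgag
The Ifi203 window is 1 of the 2 that the table holds for that gene.

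**Figure D2:**
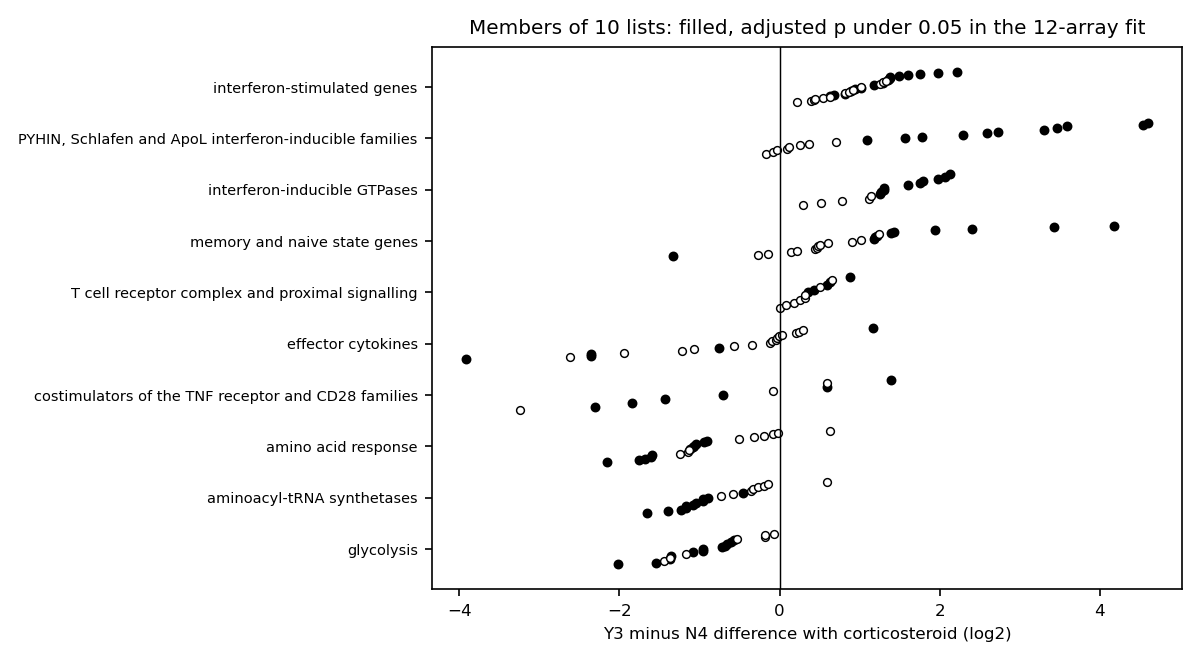
Y3 minus N4 difference with corticosteroid (log2) of every measured member of 10 gene lists, 1 point a gene, filled where the fit of all 12 arrays called it. All 30 interferon-stimulated genes and all 15 GTPases lie right of 0, and all 19 glycolysis genes lie left of it.

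Genes of the naive and memory state were mostly higher in Y3. Of 22 measured, 9 were called higher and 1 lower, and the median was 0.96 (pair medians of 1.26, 0.83 and 0.32). Ly6c2, a surface protein of memory CD8 T cells, read 10.20, 10.90 and 9.65 in N4 and 13.90, 14.53 and 14.88 in Y3, a difference of 4.18 ± 0.36 (18.2-fold). Tcf7, the TCF1 factor of naive and memory cells, read 8.0, 10.63 and 13.09 in N4 and 12.91, 14.55 and 14.56 in Y3, a difference of 3.43 ± 0.70. Eomes, the T-box factor of memory and innate-like CD8 T cells, read 7.58, 6.48 and 5.93 in N4 and 8.88, 9.23 and 9.09 in Y3, a difference of 2.40 ± 0.39. Y3 arrays were above N4 arrays in all pairs of these 3 genes, but for Tcf7 the groups overlapped, since N4 replicate 3 read above Y3 replicate 1. The corepressor Tle4, which binds TCF1 and LEF1, was the most even, with 9.09, 9.51 and 9.41 in N4 and 11.18, 11.43 and 11.22 in Y3 and a difference of 1.94 ± 0.10. Lef1 (1.19 ± 0.26), the costimulator Cd27 (1.39 ± 0.22), the repressor Bcl6 (1.18 ± 0.25), the chemokine receptor Cxcr3 (1.22 ± 0.22) and Ly6c1 (1.43 ± 0.20) were called as well. Bach2 (1.02 ± 0.35), Foxo1 (0.60 ± 0.24) and S1pr1 (0.90 ± 0.34) were not. The called gene in the other direction was Bcl2, the survival factor, which read 12.96, 12.22 and 11.95 in N4 and 12, 10.42 and 10.72 in Y3, a difference of -1.33 ± 0.19. Members called higher numbered 4, 2 and 14 without replicate numbers 1, 2 and 3, and 5 to 10 without single arrays.

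Of 6 NK cell markers, Eomes and Klrb1c were called higher. Klrb1c, at background on all 3 N4 arrays, was at least 1.29-fold higher, and Ncr1 and Klra8 were below background on all 6 arrays. The summed linear signal of the list was 957 to 153633 in N4 and 12383 to 107547 in Y3, most of it from Gzma (1.18 ± 0.93). The part of such cells in the Eomes difference was not tested.

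Of 20 effector cytokines, 4 were called lower and 1 higher, with a median of -0.24. Of the 20, 10 were above background on all 3 arrays of at least 1 peptide. Il24 read 10.51, 9.50 and 5.91 in N4 and 4.79, 4.79 and 4.60 in Y3. The Y3 arrays were all below background, which makes the mean of Il24 lower in Y3 by at least 6.08-fold. That bound rests on N4 replicates 1 and 2. N4 replicate 3, at 5.91, lay just above its own background line of 5.84 and below that of Y3 replicate 3 (6.40). Pair 3 alone thus showed no measurable difference. Lif, of the interleukin-6 family, read 10.08, 8.59 and 8.67 in N4 and 6.95, 6.72 and 6.63 in Y3, a difference of -2.35 ± 0.28 with no overlap. Lymphotoxin alpha (Lta) differed by -2.35 ± 0.54 and the RANK ligand Tnfsf11 by -0.75 ± 0.15. Lymphotoxin beta (Ltb) was called the other way, at 12.12, 12.62 and 13.53 in N4 and 13.58, 14 and 14.17 in Y3, a difference of 1.16 ± 0.19. Csf2 (-1.95 ± 0.80), Il3 (-1.22 ± 0.41), Il13 (-1.06 ± 0.45) and Tnf (-0.57 ± 0.21) were not called. Members called lower numbered 2, 0 and 2 without replicate numbers 1, 2 and 3, and 1 to 4 without single arrays.

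Lytic granule genes had no common direction over the whole list: the median of 14 was 0.024, with 1 called higher and 1 lower. Of the 14, 9 were above background on all 3 arrays of at least 1 peptide. With only genes above background on at least 3 arrays the median was -0.36. All 7 genes below 0 were lower in all 3 pairs, and 4 of the 7 above 0 were higher in all 3. Gzmb, the most abundant granzyme of effector cells, read 19.24, 18.62 and 17.65 in N4 and 18.29, 17.64 and 17.19 in Y3, a difference of -0.80 ± 0.14. The protease Ctsw was called higher, at 1.25 ± 0.19. Prf1, the pore-forming perforin, read 14.02, 11.12 and 9.31 in N4 and 9.85, 8.79 and 9.26 in Y3, a difference of -2.18 ± 0.82 that was not called. Of 10 killer lectin-like receptors Klrd1 (CD94) was called higher at 1.44 ± 0.21, along with Klrb1c, while its inhibitory partner Klrc1 (NKG2A) read 12.92, 12.34 and 13.03 in N4 and 12.61, 9.71 and 9.51 in Y3 and was not called (-2.15 ± 0.66). Of 7 chemokines none was called; Ccl5 differed by 2.08 ± 0.66 and Ccl3 by -1.08 ± 0.68.

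Among 17 effector and activation transcription factors 4 were called lower and 1 higher. Zbtb32, a zinc finger repressor induced by activation, read 12.57, 11.18 and 10.45 in N4 and 9.49, 7.84 and 8.81 in Y3, a difference of -2.68 ± 0.37. Batf3, an AP-1 factor, read 10.24, 8.77 and 9.52 in N4 and 7.06, 6.71 and 7.31 in Y3, a difference of -2.48 ± 0.25. Neither gene's groups overlapped. Nfil3 (-0.92 ± 0.18) and Myc (-0.78 ± 0.24) were the other factors called lower, and Ikzf2 (Helios) was called higher at 7.31, 8.73 and 9.44 in N4 and 9.14, 10.84 and 10.86 in Y3, a difference of 1.79 ± 0.15. Irf4, which scales with receptor signal, read 13.53, 12.82 and 12.38 in N4 and 12.86, 11.94 and 12.25 in Y3 and was not called (-0.56 ± 0.17), nor were Tbx21 (0.48 ± 0.38) and Prdm1 (0.073 ± 0.21). Factors called lower numbered 2, 1 and 5 without replicate numbers 1, 2 and 3, and 2 to 4 without single arrays.

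Immediate-early and receptor-strength genes, which report recent receptor signalling, lay mostly above 0 at day 4. The median of 13 was 0.56, 11 of 13 differences were above 0 (48.0% over all genes), and 1 was called, Nfatc1 (0.95 ± 0.19). The pair medians were 0.06, 0.86 and 0.78, so that pair 1 hardly showed it, and 4 of the 13 were higher in all 3 pairs. Nr4a1 (Nur77) read 11.79, 9.08 and 11.28 in N4 and 11.70, 12.09 and 13.73 in Y3, a difference of 1.79 ± 0.65 that was not called. Cd5, a surface protein that tracks receptor strength, differed by 0.64 ± 0.16. Receptor complex genes were higher by small amounts: Cd8b1 (0.88 ± 0.092), Fyn (0.63 ± 0.093), Cd3d (0.59 ± 0.17), Cd3e (0.43 ± 0.10) and Cd247 (0.36 ± 0.08) were called out of 13, and the median was 0.36. Those calls numbered 1, 0 and 3 without replicate numbers 1, 2 and 3, and 2 to 5 without single arrays. The summed signal of the 7 CD8 T cell markers was 274746 to 361585 in N4 and 397511 to 564851 in Y3. In such bulk samples more cells of a type and more RNA per cell cannot be told apart.

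Of 11 inhibitory receptors, Cd160 (1.12 ± 0.24) and Cd200r1 (0.64 ± 0.16) were called higher. Pdcd1 (PD-1) read 15.36, 14.21 and 14.86 in N4 and 15.64, 14.66 and 15.55 in Y3 and differed by 0.47 ± 0.11, Lag3 differed by 0.22 ± 0.12 and Ctla4 by 0.32 ± 0.27, none of them called. Without replicate numbers 1, 2 and 3, 0, 0 and 0 of the list were called higher. Costimulatory receptors of the TNF receptor family showed some of the largest differences in the other direction. Tnfrsf4 (OX40) read 14.68, 14 and 14.89 in N4 and 12.92, 11.91 and 11.82 in Y3, a difference of -2.31 ± 0.28. Tnfrsf9 (4-1BB) read 13.68, 13.41 and 13.61 in N4 and 12.22, 11.15 and 11.80 in Y3, a difference of -1.84 ± 0.17. Both were lower on every Y3 array than on any N4 array. Tnfrsf18 (GITR, -1.43 ± 0.27) and Icos (-0.70 ± 0.16) were called lower too, Tnfrsf8 (CD30, -3.25 ± 0.75) was not, and Cd27 and Tnfrsf1b (0.59 ± 0.11) were called higher. Of these 9 genes those called lower numbered 2, 0 and 3 without replicate numbers 1, 2 and 3, and 3 to 5 without single arrays.

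Cytokine receptors and STAT5 feedback genes had no common direction: of 18, 8 differences were above 0 and 10 below, the median was -0.052, 5 were called lower and 1 higher. Il2ra, the chain that makes the receptor high in affinity, read 16.49, 16.05 and 15.41 in N4 and 15.01, 14.26 and 14.12 in Y3, a difference of -1.52 ± 0.13. Cish, a STAT5 target that feeds back on the receptor, read 13.16, 11.99 and 12.85 in N4 and 10.92, 10.33 and 10.69 in Y3, a difference of -2.02 ± 0.15. The groups did not overlap for either gene. Pim1 (-1.43 ± 0.11), a STAT5-induced kinase, the cytokine Osm (-1.43 ± 0.094) and Il12rb2 (-0.64 ± 0.10) were also called lower, and Il10ra (1.70 ± 0.31) was called higher. Il2rb (0.22 ± 0.26) and Il2rg (0.35 ± 0.093), the other receptor chains, were not called. Over the list of 18, those called lower numbered 4, 2 and 5 without replicate numbers 1, 2 and 3, and 5 to 6 without single arrays.

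Glucocorticoid target genes had no common direction: the median of 20 was 0.049, with 1 called higher and 2 lower. Tsc22d3 (GILZ), a direct target of the receptor, read 7.60, 9.34 and 10.07 in N4 and 9.10, 10.24 and 10.13 in Y3, a difference of 0.82 ± 0.30 that was not called. Fkbp5, another target, read 8.78, 9.61 and 8.47 in N4 and 9.10, 9.35 and 9.37 in Y3 and differed by 0.32 ± 0.24, also not called. The glucocorticoid receptor itself, Nr3c1, read 8.83, 9.77 and 9.54 in N4 and 9.99, 10.25 and 9.83 in Y3, a difference of 0.64 ± 0.20 (adjusted p = 0.0471 in the fit of 12 arrays). Txnip, an inhibitor of glucose uptake that sensing of glucose metabolites also controls, was called higher, at 11.61, 14.55 and 13.26 in N4 and 14.89, 15.76 and 15.95 in Y3, a difference of 2.39 ± 0.43. The metallothioneins Mt1 (-1.19 ± 0.18) and Mt2 (-1.71 ± 0.28) were called lower. Of the list, 0, 0 and 3 members were called higher and 3, 0 and 2 lower without replicate numbers 1, 2 and 3.

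Amino acid response genes formed the lowest list. These are targets of ATF4, a factor whose translation rises when amino acids run short or demand for them is high. Of 20 measured, 19 had a difference below 0, 11 were called lower and none was called higher, and the median was -1.08 (pair medians of -1.03, -0.73 and -1.03). Asns, asparagine synthetase, read 12.15, 11.19 and 12.20 in N4 and 10.37, 9.10 and 9.60 in Y3, a difference of -2.16 ± 0.18 (4.47-fold). Atf4 itself read 10.83, 9.97 and 10.81 in N4 and 8.88, 8.75 and 8.70 in Y3, a difference of -1.76 ± 0.20. All Y3 arrays lay below all N4 arrays for both. The serine and folate enzymes Mthfd2 (-1.61 ± 0.18), Psat1 (-1.05 ± 0.16) and Shmt2 (-0.95 ± 0.20), the proline enzymes Aldh18a1 (-1.12 ± 0.15) and Pycr1 (-1.07 ± 0.087), the cysteine enzyme Cth (-1.68 ± 0.28), and the stress regulators Sesn2 (-1.08 ± 0.28) and Trib3 (-0.91 ± 0.18) were called lower. Chac1, a glutathione-degrading enzyme below background on all 3 Y3 arrays, was at least 1.87-fold lower. Ddit3 (-1.24 ± 0.64), Vldlr (-1.13 ± 0.45), Nupr1 (-1.14 ± 0.28) and Phgdh (-0.51 ± 0.14) were not called, and Ddit4 (0.63 ± 0.39), also a glucocorticoid target, was the member above 0. The calls numbered 4, 2 and 10 without replicate numbers 1, 2 and 3, and 7 to 12 without single arrays.

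Amino acid transporters and aminoacyl-tRNA synthetases, which feed the same step of protein synthesis, pointed the same way. Of 11 transporters 6 were called lower and 1 higher. Slc7a5, the leucine transporter on which effector T cells depend, read 15.09, 13.76 and 13.41 in N4 and 13.09, 10.70 and 12.19 in Y3, a difference of -2.09 ± 0.37. Its partner chain Slc3a2 differed by -0.99 ± 0.19, Slc1a4 by -1.34 ± 0.15 and the arginine transporter Slc7a1 by -1.33 ± 0.29, while Slc43a1 was called higher (1.40 ± 0.35). Of 19 synthetases 11 were called lower and none higher, with a median of -0.90 (pair medians of -1.12, -0.86 and -0.39). Cars read 10.41, 9.88 and 10.70 in N4 and 9.13, 8.36 and 8.56 in Y3, a difference of -1.65 ± 0.19. Iars (-1.40 ± 0.11), Nars (-1.23 ± 0.13), Eprs (-1.17 ± 0.12), Yars (-1.17 ± 0.10), Mars (-1.08 ± 0.13) and Gars (-1.04 ± 0.08) followed. Wars, the synthetase that interferon also induces, was the one member above 0 (0.60 ± 0.36, not called). Transporters called lower numbered 2, 1 and 4 without replicate numbers 1, 2 and 3, and 2 to 7 without single arrays. Synthetases called lower numbered 7, 0 and 14 without replicate numbers 1, 2 and 3, and 8 to 12 without single arrays.

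The element through which ATF4 and its partners act was searched in the promoters of these lists as TGATG, any base, AA, on both strands. It was present in 7 of 22 promoters of the amino acid response list (31.8%), in 5 of 12 of the synthetases (41.7%), in 1 of 10 of the transporters (10%) and in 3.97% of all promoters. Promoters were at hand for 19 of the 20, 12 of the 20 and 7 of the 11 genes listed. The windows of Asns and Pycr1 are shown because Asns had the largest difference of its list and Pycr1 the smallest standard error among the called ones, with the match in capitals and the same build, length and source as above.
Asns, chr6:7693160-7693459, minus strand: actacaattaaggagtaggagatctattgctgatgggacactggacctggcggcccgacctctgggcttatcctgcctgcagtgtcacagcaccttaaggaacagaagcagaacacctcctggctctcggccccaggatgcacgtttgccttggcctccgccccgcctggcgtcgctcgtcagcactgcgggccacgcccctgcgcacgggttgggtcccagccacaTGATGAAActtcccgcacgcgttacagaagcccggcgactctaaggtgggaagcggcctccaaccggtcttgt
Pycr1, chr11:120643699-120643998, minus strand: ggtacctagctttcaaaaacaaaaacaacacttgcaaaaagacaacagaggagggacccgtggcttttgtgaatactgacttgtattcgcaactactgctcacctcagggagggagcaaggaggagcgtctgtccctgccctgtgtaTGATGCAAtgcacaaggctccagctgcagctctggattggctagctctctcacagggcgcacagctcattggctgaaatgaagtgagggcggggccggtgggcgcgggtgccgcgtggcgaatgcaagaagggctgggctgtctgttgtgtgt

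Mitochondrial proteases and chaperones were lower as well, with 5 of 12 called lower, none higher and a median of -0.50. The protease Lonp1 read 11.28, 11.36 and 11.15 in N4 and 9.71, 8.54 and 8.86 in Y3, a difference of -2.23 ± 0.26, the largest of the list, and the chaperone Hspa9 differed by -1.04 ± 0.17. Subunits of the respiratory chain differed little: the median of 18 was -0.15, and Atp5b (-0.44 ± 0.12) and Ndufs3 (-0.30 ± 0.084) were called lower. The calls among proteases and chaperones numbered 1, 0 and 5 without replicate numbers 1, 2 and 3, and 4 to 5 without single arrays.

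All 19 glycolysis genes had a difference below 0, and 12 were called lower, with a median of -0.95. The pairs were uneven, with medians of -0.28, -0.96 and -1.45 in pairs 1, 2 and 3. Tpi1, triose phosphate isomerase, read 15.56, 15 and 15.42 in N4 and 14.59, 12.90 and 12.42 in Y3, a difference of -2.02 ± 0.41. Hk2, the hexokinase induced in effector cells, read 10.28, 9.53 and 9.91 in N4 and 10.00, 7.40 and 7.70 in Y3, a difference of -1.54 ± 0.44. In both genes Y3 replicate 1 was the brightest Y3 array, and for Hk2 the groups overlapped. Pfkl (-1.37 ± 0.29), Pgam1 (-1.36 ± 0.24), Pkm (-1.09 ± 0.32), Eno1 (-0.95 ± 0.17), Pgk1 (-0.72 ± 0.21) and Ldha (-0.61 ± 0.085) were called, while the glucose transporters Slc2a1 (-1.44 ± 0.71) and Slc2a3 (-1.17 ± 0.46) were not. The hypoxia-inducible genes Bnip3 and Ero1l followed the same unevenness. Bnip3 read 12, 11.49 and 12.37 in N4 and 11.26, 8.63 and 7.69 in Y3, a difference of -2.76 ± 0.78. Ero1l read 15.05, 14.81 and 15.38 in N4 and 14.22, 12.26 and 11.54 in Y3, a difference of -2.40 ± 0.60. Hif1a itself differed by -0.27 ± 0.15 and was not called. The count of glycolysis calls was 6, 0 and 5 without replicate numbers 1, 2 and 3, and 3 to 12 without single arrays.

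Sterol synthesis genes depended on the pair. The list median was -0.69 over the 3 pairs, but -1.03 and -1.32 in pairs 1 and 2 and 0.37 in pair 3, and 5 of 23 genes were called lower. Hmgcs1, an early enzyme of the pathway, read 15.95, 15.80 and 13.19 in N4 and 14.58, 13.84 and 14.02 in Y3, a difference of -0.83 ± 0.58. Its N4 replicate 3 was the dimmest of its group. Fdps (-1.41 ± 0.25), Fdft1 (-1.07 ± 0.22), Mvd (-1.02 ± 0.20), Pmvk (-0.66 ± 0.087) and Nsdhl (-0.61 ± 0.12) were called. Pair 3 also lay on the other side of 0 from pairs 1 and 2 for Myc and ribosome biogenesis, cell cycle and oxidative phosphorylation genes: Myc and ribosome biogenesis genes had pair medians of -1.27, -0.50 and 0.53, cell cycle genes -0.42, -1.18 and 0.26, and oxidative phosphorylation genes -0.27, -0.27 and 0.29. Of 28 cell cycle genes none was called, and Mki67 differed by -0.47 ± 0.29 and Ccnb1 by -1.11 ± 0.29. Of 20 Myc and ribosome biogenesis genes Myc and Polr1c (-0.59 ± 0.08) were called lower. N4 replicate 3 is the array that stood apart on the second principal component, and its part in these pair medians was not tested. Sterol calls numbered 0, 0 and 16 without replicate numbers 1, 2 and 3, and 1 to 6 without single arrays.

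**Figure D3:**
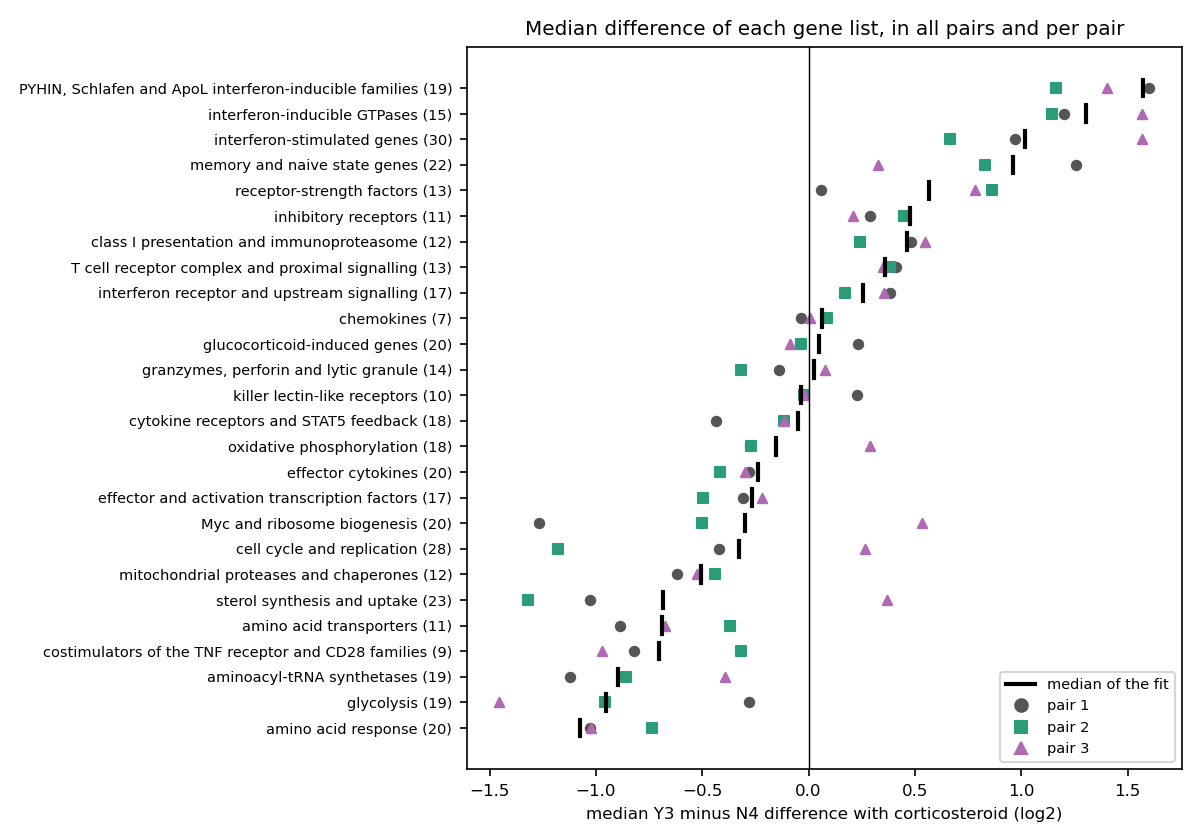
Median Y3 minus N4 difference with corticosteroid (log2) of each gene list, with the number of measured genes in brackets, as a bar for the paired fit and as 1 marker for each pair. The interferon lists lie right of 0 and the amino acid response, synthetase and glycolysis lists left of it in all 3 pairs, while other lists, among them sterol, ribosome biogenesis, cell cycle and oxidative phosphorylation, change side in pair 3.

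Some markers of other spleen cells had signal above background. The class II gene H2-Ab1 read 11.09, 12.13 and 12.32 in N4 and 10.72, 9.97 and 10.29 in Y3, a difference of -1.52 ± 0.40 that was called lower, whereas its partner chain H2-Aa and the related H2-Eb1 were below background on all 6 arrays. The summed signal of the dendritic cell list was 2546 to 5494 in N4 and 1315 to 2004 in Y3, most of it from H2-Ab1. Cd79b, part of the B cell receptor, differed by 0.55 ± 0.088 while Ms4a1 and Cd79a were below background, and the part of other cells in these differences was not tested. The B cell list summed to 271 to 322 in N4 and 308 to 385 in Y3. Ccr4, listed with CD4 and regulatory T cell markers and also made by activated CD8 T cells, read 12.94, 12.25 and 11.59 in N4 and 9.44, 9.86 and 9.66 in Y3, a difference of -2.61 ± 0.33. Foxp3 was below background on all 6 arrays, and Cd4 was below it on all N4 arrays and on 2 of the 3 Y3 arrays. The summed signal of that list was 3310 to 8065 in N4 and 894 to 1181 in Y3, most of it from Ccr4, so it mainly repeats the Ccr4 difference.

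The last question is whether the peptide difference under corticosteroid differed from that without it. No gene (0%) passed the test of the difference of differences, whose smallest adjusted p was 0.896, and 2132 genes (5.40%) had an unadjusted p below 0.05. Of the 2576 called genes, 2378 had the same direction in all 3 pairs without corticosteroid, which the fit of 12 arrays uses in part. The share of all genes for which this held was not counted, so 2378 is no measure of agreement. Pydc3 differed by 4.80 without corticosteroid and 4.60 ± 0.51 with it, and Ly6c2 by 4.14 and 4.18 ± 0.36. The difference with minus that without was -0.20 ± 0.14 for Pydc3 and 0.045 ± 0.12 for Ly6c2. Gpr15, at background in N4 with corticosteroid on 2 of 3 arrays, differed by 1.86 without and 2.71 ± 0.24 with corticosteroid. The list with the most even shift was sterol synthesis: 22 of 23 genes had a lower difference with corticosteroid than without, with a median shift of -0.44. Of these 23 genes 14 had an unadjusted p below 0.05, and none passed after adjustment over all genes. The sterol medians without corticosteroid were -0.42, -1.12 and 0.60 in pairs 1, 2 and 3, so that the pairs kept their order. Among glycolysis genes 15 of 19 shifted the same way, by a median of -0.30, and among synthetases 17 of 19, by -0.14. Cell cycle genes shifted the other way in 24 of 28, by a median of 0.17. These 3 lists did not move the same way in every pair. In pairs 1, 2 and 3 the glycolysis medians were -0.69, -0.47 and -0.98 without corticosteroid and -0.28, -0.96 and -1.45 with it. Synthetase medians were -0.56, -0.93 and -0.43 without and -1.12, -0.86 and -0.39 with it. Cell cycle medians were -0.20, -1.23 and -0.37 without and -0.42, -1.18 and 0.26 with it. Of the 28 cell cycle genes 0 had an unadjusted p below 0.05 for the shift. Lists outside metabolism shifted too. The difference was lower with corticosteroid in 17 of 19 PYHIN, Schlafen and ApoL genes (median -0.16) and 23 of 30 interferon-stimulated genes (-0.089). It was higher in 19 of 22 naive and memory state genes (0.075) and 16 of 20 effector cytokines (0.14). In none of these lists did the median move the same way in every pair. The median shift over all genes was -0.0047.

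**Figure D4:**
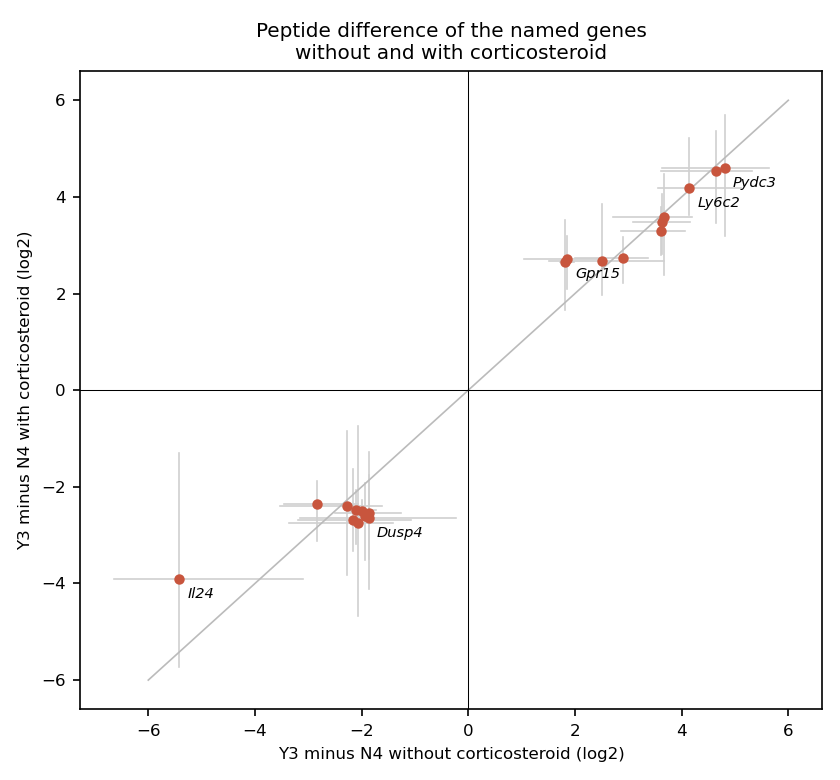
Y3 minus N4 difference (log2) of the 20 named genes without corticosteroid (horizontal axis) and with it (vertical axis), each point a mean of 3 pairs, the lines spanning the lowest to the highest pair and the diagonal marking equality. Points lie on both sides of 0, some near the diagonal and some off it. Among those off it are Il24 (-5.42 without and -3.91 with corticosteroid), Gpr15 (1.86 and 2.71) and Dusp4 (-1.87 and -2.65). The lowest point is Il24, whose difference is not exact, since it was below background on all 3 Y3 arrays with corticosteroid.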

How the data were processed

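RNA of the cultures was hybridised to Affymetrix mouse transcriptome arrays. The deposited values are linear signal intensities, 1 per transcript cluster, which the authors summarised with SST-RMA, per the file headers (RMA, per the submitters' processing notes, which give no version); no genome build is given in the sources used here. Their log2 was taken without a pseudocount or rescaling. Of 65956 clusters 40123 carried a symbol, and for 461 symbols with several clusters the brightest over all arrays was used, leaving 39463 genes. The tests were two-sided, by limma 3.58.1 under R 4.3.3, with Benjamini-Hochberg adjustment over all genes. The 6 arrays were fitted with the replicate number as a block, since the comparison is defined over pairs; arrays of both peptides with the same number had deviations that correlated at 0.548, 0.269 and 0.255, against -0.559 to 0.402 for arrays of different number. Precision is limited by how few arrays there are. The fits were tested on simulated data. These shared a replicate effect, but arrays of 1 peptide and number did not deviate together as the real ones do. The simulation therefore cannot show how many calls of the 12-array fit rest on that. Members and lists were chosen with earlier results of these data known. A rule named the 10 largest differences each way among genes with no overlap and the higher group above background, filled from the fit of 12 arrays since none passed in the 6. List members named are those called and others with small p; some were chosen after their values were seen. Of the 489 genes in 34 lists 482 were measured, some in 2 lists. Alternatives were the unpaired fit, all 12 arrays, other scaling, filters and left-out arrays. Some items are not reported here.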

Additional observations from a re-analysis of the deposited data

Results flagged for a closer look

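In 2 listed genes the 3 differences with corticosteroid and the 3 without pointed in opposite directions in every pair. For Ndufb5, a respiratory chain subunit, the difference with corticosteroid minus that without was -0.153 (log2). For Siglech, a plasmacytoid dendritic cell marker below background on all 6 arrays with corticosteroid, it was 0.304. In both the adjusted p of that difference missed 0.05, at 0.975 and 0.91, so a difference between the conditions was not shown.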

How the results depend on the processing

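The paired fit of the 6 arrays called 0 genes at an adjusted p of 0.05, and so did the unpaired fit of these arrays and every other alternative run on them. The fit of all 12 arrays called 2576 genes with the replicate block, 101 with no replicate block (31 higher and 70 lower in Y3), and 2370 with a random block for peptide and number as well. Chosen after seeing the data were that random block and the alternatives of the 12-array fit. Without a replicate number the 12-array count lay between 79 and 2962. Without single arrays it lay between 847 (Y3 with corticosteroid, replicate 2) and 2705, and was 1296, 1130 and 1317 without N4 replicates 1, 2 and 3 with corticosteroid and 1470 without Y3 replicate 1. Other scaling, filters, clusters and variance trend gave 2172 to 2886. The difference of differences called 0 genes, and 0 to 1 without a replicate number (the gene was Gm11115, without number 1); the cause was not tested. The direction of the 20 named genes is no sign of stability, since the rule that named them asked for groups without overlap. List medians changed sign under at least 1 alternative for chemokines, granzymes, killer lectin-like receptors, cytokine receptors, Myc and ribosome biogenesis, and CD4, dendritic and neutrophil markers. Genes with signals near background have differences that the array understates or cannot measure.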

Other observations

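Outside the lists, the 30 genes with the smallest paired p among named genes above background on all arrays of a group had an adjusted p of 0.0825 each; the following were chosen after their values were seen. Choice by the smallest paired p favours small standard errors, so those given here may be too small. Art2b, a T cell surface ADP-ribosyltransferase, had the largest difference among them, at 5.50, 9.96 and 7.33 in N4 and 9.04, 13.77 and 11.98 in Y3, a difference of 4.00 ± 0.24. Its standard error was 0.49 in the fit of 12 arrays. The groups overlapped for Art2b, and for Tubb6 and Glcci1 below. The transcription factor Ikzf3 (Aiolos) differed by 1.74 ± 0.093 and Btg2, an antiproliferative gene, by 1.76 ± 0.14. The adaptor genes Lax1 (2.13 ± 0.18) and Sla (1.47 ± 0.12), which restrain receptor signalling, the adhesion molecule Pecam1 (1.58 ± 0.12) and the nucleoside transporter Slc28a2 (1.75 ± 0.12) were also higher in Y3. Lower in Y3 were Aimp2 (-1.30 ± 0.079), a scaffold of the tRNA synthetase complex, and Tubb6 (-1.93 ± 0.17), a tubulin. Vimp (-1.26 ± 0.088), a selenoprotein of the endoplasmic reticulum, was lower too. Glcci1, named for its induction by glucocorticoid, differed by 1.38 ± 0.082 with corticosteroid and 1.30 without.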
